A study of Mus musculus with 17 samples.

Results

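The genes described here are 8 genes of plasma cell differentiation, *Prdm1*, *Irf4*, *Xbp1*, *Jchain*, *Sdc1*, *Mzb1*, *Hspa5* and *Fkbp11*, in germinal centre (GC) B cells of mouse lymph nodes. They were chosen by symbol for their known roles, and they are 8 of the 21848 genes of the single-cell RNA count matrices. All 8 had UMIs, where a UMI (unique molecular identifier) stands for 1 captured RNA molecule. The levels given are UMIs per 1000000 UMIs of a mouse (CPM, with the total scaled by edgeR's TMM factor), after the UMIs of all its kept cells were summed.

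The mice were CD45.1/1 recipients primed with the antigen OVA in alum, which received NP-specific B1-8hi B cells, a mixture of cells that express the receptor DEC-205 and Ly75-/- cells that lack it, and were then immunized in the footpad with NP-OVA. On day 7 some mice received anti-DEC-OVA, an antibody to DEC-205 that carries OVA, which loads DEC-205-expressing GC B cells with antigen for presentation to helper T cells and drives a burst of their division. Groups were taken on day 7 (0 h, 9 mice), on day 9 untreated (48 h, 6 mice) or treated (48 h, 9 mice), and on day 10 untreated (72 h, 8 mice) or treated (72 h, 7 mice), in a larger experiment of 25 mice and a smaller experiment of 14 mice that each formed 1 pool. For these groups the labels give the sort as live GC cells. The study, in contrast, describes the cells whose mutations it counted at these times as DEC-205-expressing GC B cells. Whether the counts here also hold cells that lack DEC-205 was not tested. The study's stated gate for GC cells is B220+, Fas+, CD38- and TCRb-, which would remove T cells and CD38+ naive and memory B cells. It would also remove plasma cells that lack B220, so the counts below cover only cells that passed the gate. A further experiment sorted GC B cells of 7 mice with a Rosa26 DHB-tdTomato reporter of the division kinase CDK2, all 72 h after anti-DEC-OVA, into CDK2hi cells (reporter in the cytoplasm) and CDK2low cells (reporter in the nucleus), which were separate pools, so that pool and population cannot be told apart. The labels name these pools only by the letters C and N, which are read here, from the study's description of the sort, as cytoplasmic and nuclear, and each direction given between them rests on that reading. A first experiment of 9 mice held 3 untreated mice on day 7, 3 untreated and 3 treated mice on day 10, and its treated cells alone were sorted as DEC-205-expressing cells with a low level of an H2B-mCherry label that is diluted by division, so that treatment and this sort cannot be told apart there.

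GC B cells leave the germinal centre either as memory cells or as plasma cells, the cells that secrete antibody. *Irf4* and *Prdm1* encode the transcription factors IRF4 and BLIMP-1, which switch off the B cell programme, and XBP1 then expands the endoplasmic reticulum (ER) to a secretory organelle. Helper T cell signals are known both to induce this step and to send GC B cells into rounds of division.

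The ER branch of this programme is written in part in promoter sequence, and the *Hspa5* promoter is shown because it was the window among the members that held an ER stress element, the letters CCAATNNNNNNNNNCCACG, bound by ATF6 together with NF-Y. *Hspa5* encodes BiP, the main ER chaperone and a classic target of this element. The stretch below is RefSeq sequence of the GRCm38.p6 build, plus strand, chr2:34771970-34772089, with the element in capitals.
*Hspa5* promoter: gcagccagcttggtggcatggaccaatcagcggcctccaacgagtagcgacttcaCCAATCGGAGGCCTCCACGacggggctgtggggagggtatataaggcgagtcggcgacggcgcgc
The element lay from 65 to 47 bases before the annotated start. Read on both strands, it was in 39 of 32851 promoter windows of 250 bases before to 50 bases after a start (0.119%), and in 1 of 8 windows of 7 members (*Mzb1* was not searched). A match is only a match of letters, and its use was not measured. In the GRCm39 annotation the gene lies at chr2:34661982-34668880 on the plus strand. The others are *Prdm1* (chr10:44313171-44404497, minus strand), *Irf4* (chr13:30933209-30950959, plus), *Xbp1* (chr11:5470606-5483027, plus), *Jchain* (chr5:88667668-88675750, minus), *Sdc1* (chr12:8820854-8843725, plus) and *Fkbp11* (chr15:98622244-98626091, minus), besides *Mzb1*.

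The 39 mice of the 0, 48 and 72 h groups gave 23698 kept cells, with 292 to 1045 cells and 1984426 to 13373185 UMIs per mouse. Cells from treated mice at 48 h were the deepest, with a median of 12991 UMIs per cell against 6131 to 7400 in the other 4 groups, so that shares of cells with a UMI are also given after each cell was thinned to 2871 UMIs, which left out 281 to 701 shallower cells per group. The filter on mitochondrial UMIs removed 3114 of 13187 assigned cells in the smaller experiment and 350 of 13976 in the larger. All 8 GC B cell markers, *Cd79a* among them, were detected, with a summed level of 2604 to 4333 CPM per mouse. With treatment 1 of the 8 rose and 4 fell at 48 h, where 47.4% of all genes were called. From 48 h to 72 h with treatment 7 rose and 1 fell, where 49.1% were. The 2 pools shared 94 cell barcodes, out of 16424 and 18233. Fewer cells of a type and less RNA per cell cannot be told apart in values summed per mouse.

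*Prdm1*, *Sdc1* and *Fkbp11* came from few cells. *Prdm1* had a UMI in 198 of 23698 cells, with a median of 10129.5 UMIs per cell against 7585 in cells without it. Among the *Prdm1* cells 50.5% also had a UMI of *Sdc1*, the plasma cell surface proteoglycan CD138, against 0.400% of the other cells. *Fkbp11*, a secretory-pathway prolyl isomerase, was seen in 56.6% against 0.579%, and *Irf4* in 64.1% against 8.26%. The share with *Jchain*, which encodes the chain that joins antibody molecules, differed less, at 92.9% against 85.9%. These are pooled cells of 39 mice, given as a description.

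Antibody transcripts went with *Prdm1* detection. In cells with an assembled light chain, the median number of light-chain contig UMIs was 6127.5 with a *Prdm1* UMI and 131 without. In all 27 mice that had at least 3 such *Prdm1* cells the median was higher in those cells, by a ratio between 1.79 and 158 with a median of 33.1. The lowest ratio came from a treated mouse of the larger experiment at 48 h, as the plot of light-chain UMIs by mouse shows.

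**Figure D1:**
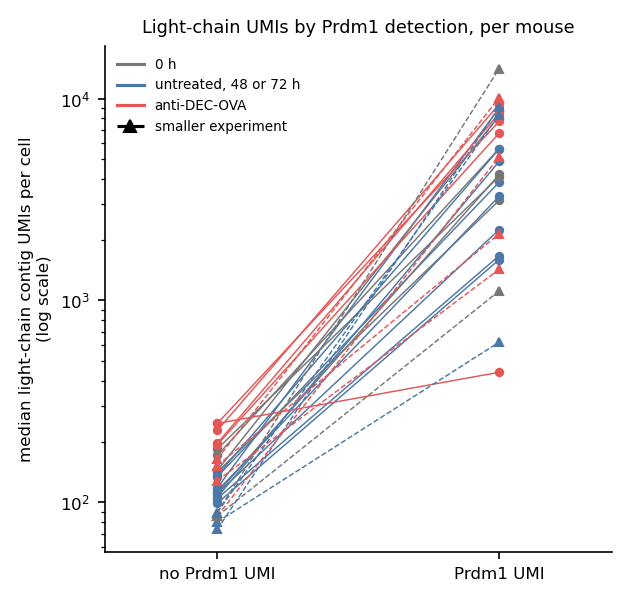
Median light-chain contig UMIs per cell (log axis) in cells without and with a *Prdm1* UMI, with a line for each of the 27 mice, coloured by group and dashed for the smaller experiment. Every line rises, and the median ratio is 33.1.

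Cells with a UMI of at least 2 of 4 plasma cell genes, *Prdm1*, *Sdc1*, *Tnfrsf17* (the receptor BCMA) and *Slamf7*, were counted without naming them as a type. They were 308 of 23698 cells (1.30%). By the way they were chosen they held nearly all *Prdm1* and *Sdc1* UMIs (98.1% and 98.7%). They also held 90.8% of the *Fkbp11* UMIs, 24.3% of *Irf4*, 22.5% of *Mzb1*, 21.1% of *Jchain*, 16.9% of *Xbp1* and 10.8% of *Hspa5*. Thus the level of *Fkbp11* in a mouse followed these few cells, whereas most molecules of the other 5 genes lay outside them. Their median number of light-chain UMIs was 3064.5 against 130 in all other cells. Within them the spread was wide, with quartiles at 282.5 and 9539.75 light-chain UMIs.

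In the larger and smaller experiments pooled, the share of cells with 2 or more of these markers was lower in treated than in untreated mice at 72 h, while in the first experiment the means ran the other way (0.517% treated and 0.0647% untreated, and 0.157% and 0.0737% with thinned cells, not tested). At 48 h it was between 0.133% and 1.94% (median 1.25%) in the 6 untreated mice and between 0.712% and 3.03% (median 1.14%) in the 9 treated mice, and the groups overlapped. The means were 1.69% in treated and 1.19% in untreated mice, the opposite order to the medians. The difference of the means was 0.504 percentage points, with p = 0.285 in an exact two-sided permutation test within experiments (adjusted p = 0.380 over 4 tests), and 0.0715 points with thinned cells (p = 0.804, exact permutation). At 72 h it was between 0.574% and 2.70% (median 1.51%) in the 8 untreated mice and between 0.344% and 1.19% (median 0.672%) in the 7 treated mice. The difference of the means (0.711% treated and 1.59% untreated) of -0.882 points had p = 0.00794 in the same exact permutation test (adjusted p = 0.0159), and thinned cells gave -0.681 points (exact permutation, adjusted p = 0.0159). In the larger experiment alone it was -1.40 points (exact permutation p = 0.00794). In the smaller experiment it was -0.0523 points (exact permutation p = 0.8, where 3 mice against 3 cannot go below 0.1). This count and its test were chosen after the data had been seen. *Prdm1* is 1 of the 4 genes counted and had a UMI in 188 of the 308 cells, so the fall in this share at 72 h and that in *Prdm1* rest largely on the same cells and are not separate results.

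**Figure D2:**
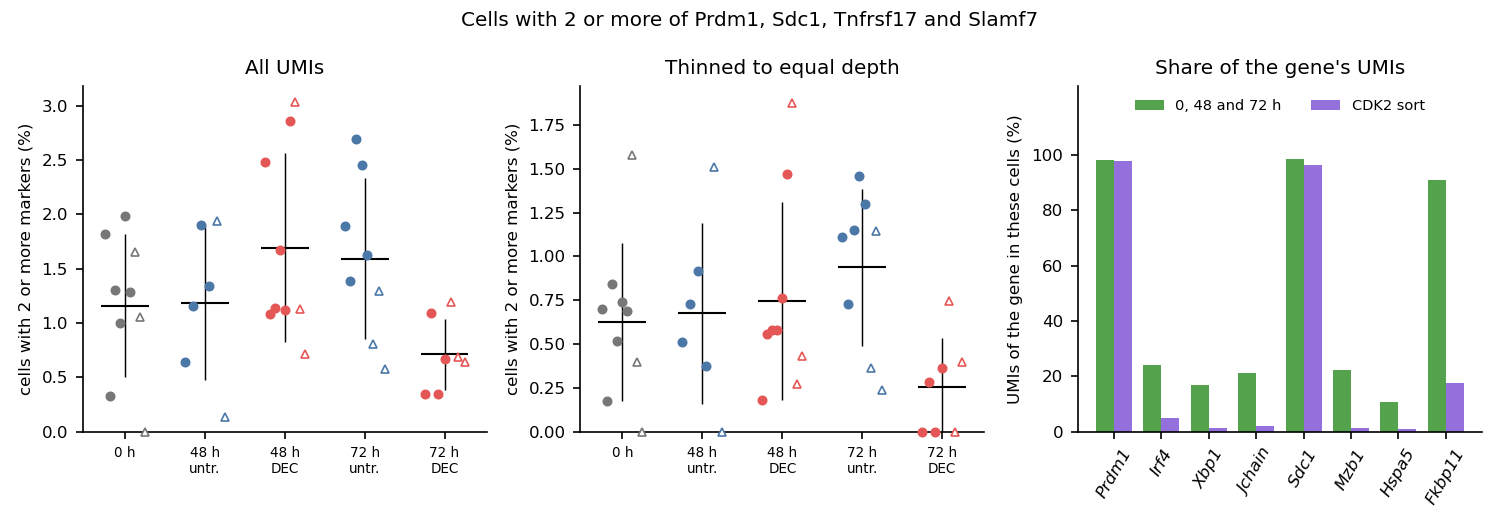
Left and middle, percent of cells per mouse with a UMI of 2 or more of *Prdm1*, *Sdc1*, *Tnfrsf17* and *Slamf7*, with all UMIs and after thinning (circles, larger experiment; triangles, smaller experiment; lines, mean ± SD). Right, percent of each gene's UMIs that lay in these cells, 98.1% for *Prdm1* and 10.8% for *Hspa5* at 0, 48 and 72 h. Treated mice at 72 h have the lowest mean, 0.711%.

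Among the transcription factors, *Prdm1* was lower in treated than in untreated mice at 72 h in the pooled larger and smaller experiments, while in the first experiment its mean was higher in treated mice (1.86 against 0.643 CPM) and did not pass the threshold. It ranged from 0.879 to 16.0 CPM (median 7.01) in the 8 untreated mice and from 0 to 1.66 CPM (median 0.621) in the 7 treated mice. The groups did not overlap in the larger experiment, where untreated mice had 4.33 to 16.0 CPM and treated mice 0.175 to 0.850 CPM, but overlapped in the smaller. The log2 fold change was -3.22 ± 0.72 (SE), with an adjusted p of 0.00277 in edgeR's quasi-likelihood test over 10220 genes. It was -4.36 (edgeR adjusted p = 0.000384) in the larger experiment alone and -1.74 (edgeR adjusted p = 0.792) in the smaller. *Prdm1* was the only member of 8 past the threshold at 72 h, where 8.55% of all genes tested passed it.

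At the other times *Prdm1* ranged from 0.478 to 9.49 CPM (median 3.22) at 0 h, from 0 to 10.4 CPM (median 5.60) in untreated mice at 48 h and from 0.995 to 6.62 CPM (median 2.26) in treated mice at 48 h. These groups overlapped, and the treatment difference at 48 h was -0.85 ± 0.48 on the log2 scale (edgeR adjusted p = 0.147). Single untreated mice of the smaller experiment moved it, with -0.40 (edgeR adjusted p = 0.567) without B1 and -1.13, past the threshold (edgeR adjusted p = 0.0432), without B3. The share of cells with a *Prdm1* UMI was 1.18% ± 0.59 (SD, n = 8) in untreated and 0.299% ± 0.249 (SD, n = 7) in treated mice at 72 h, and 0.815% and 0.109% with thinned cells. T cells, which the TCRb- gate would remove, use *Prdm1* too, and it had a UMI in 2 of 68 cells with 3 or more T cell markers. These markers summed to 2.27 to 27.6 CPM in untreated and 1.42 to 9.67 CPM in treated mice at 72 h, and their part in the result was not tested. At 48 h the share of cells with a *Prdm1* UMI was 0.872% ± 0.662 (SD, n = 6) in untreated and 1.03% ± 0.48 (SD, n = 9) in treated mice. With thinned cells the order turned, to 0.652% ± 0.420 and 0.539% ± 0.291.

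*Irf4* was lower in treated mice at 48 h. It ranged from 6.94 to 38.2 CPM (median 23.7) in the 6 untreated mice and from 5.13 to 16.7 CPM (median 10.7) in the 9 treated mice. In the larger experiment every untreated mouse (23.1 CPM or more) lay above every treated mouse, and in the smaller the groups overlapped. The log2 fold change was -0.97 ± 0.19 (SE), with an edgeR adjusted p of 7.16e-05. It was -1.22 (edgeR adjusted p = 2.56e-05) in the larger experiment alone and -0.36 (edgeR adjusted p = 0.480) in the smaller. Of the 8 members 3 passed the threshold at 48 h, *Irf4*, *Jchain* and *Hspa5*, where 47.4% of all genes did.

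The fall of *Irf4* at 48 h was as large without the cells that carried 2 plasma cell markers (-1.10, edgeR adjusted p = 6.91e-06). The share of cells with an *Irf4* UMI was 10.4% untreated and 9.20% treated, where the treated cells were deeper, and after thinning 5.40% ± 2.28 (SD, n = 6) and 2.80% ± 0.80 (SD, n = 9). T cells use *Irf4* as well, and T cell markers moved with it, where the gate was TCRb-. Of 8 listed markers 5 were tested and 4 were lower in treated mice at 48 h, where 47.4% of all genes were called. Only 7 of the 8 were in the count matrices. Their summed level was 10.1 to 15.4 CPM in untreated and 1.42 to 8.01 CPM in treated mice, with none of these 7 at 0 in either group. *Irf4* had a UMI in 3 of 68 cells with 3 or more T cell markers, and the part of such cells in the result was not tested. Of 6 naive or memory B cell markers 4 were lower as well, beside the same 47.4% of all genes called. The 6 summed to 238 to 440 CPM untreated and 106 to 219 CPM treated, where the gate was CD38- and Fas+, and their part was not tested either.

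At 72 h *Irf4* ranged from 10.4 to 28.7 CPM (median 15.8) in untreated and from 6.93 to 13.4 CPM (median 10.97) in treated mice. The log2 fold change of -0.67 ± 0.23 did not pass the threshold (edgeR adjusted p = 0.0594), while the larger experiment alone passed it (-0.80, edgeR adjusted p = 0.0367), as did 5 of the 39 fits that left out 1 mouse (-0.77 to -0.59 over all 39). At 0 h the 9 mice ranged from 3.82 to 36.9 CPM (median 15.6). The 3 mice of the smaller experiment were at 3.82, 6.43 and 12.0 CPM and those of the larger at 14.6 CPM or more, so that the experiments stood apart for this gene.

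*Xbp1*, the transcription factor of the secretory ER, did not pass the threshold against untreated mice at either time. At 48 h it ranged from 89.3 to 187 CPM (median 169) in untreated and from 108 to 218 CPM (median 161) in treated mice, a log2 fold change of 0.06 ± 0.12 (edgeR adjusted p = 0.697). At 72 h the ranges were 93.9 to 211 CPM (median 157) and 67.5 to 148 CPM (median 132), a log2 fold change of -0.29 ± 0.12 (edgeR adjusted p = 0.159). At 0 h it ranged from 83.1 to 221 CPM (median 151). The share of cells with an *Xbp1* UMI, 49.2% untreated and 67.4% treated at 48 h, came to 27.2% and 29.2% once the cells were thinned, in step with the CPM.

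**Figure D3:**
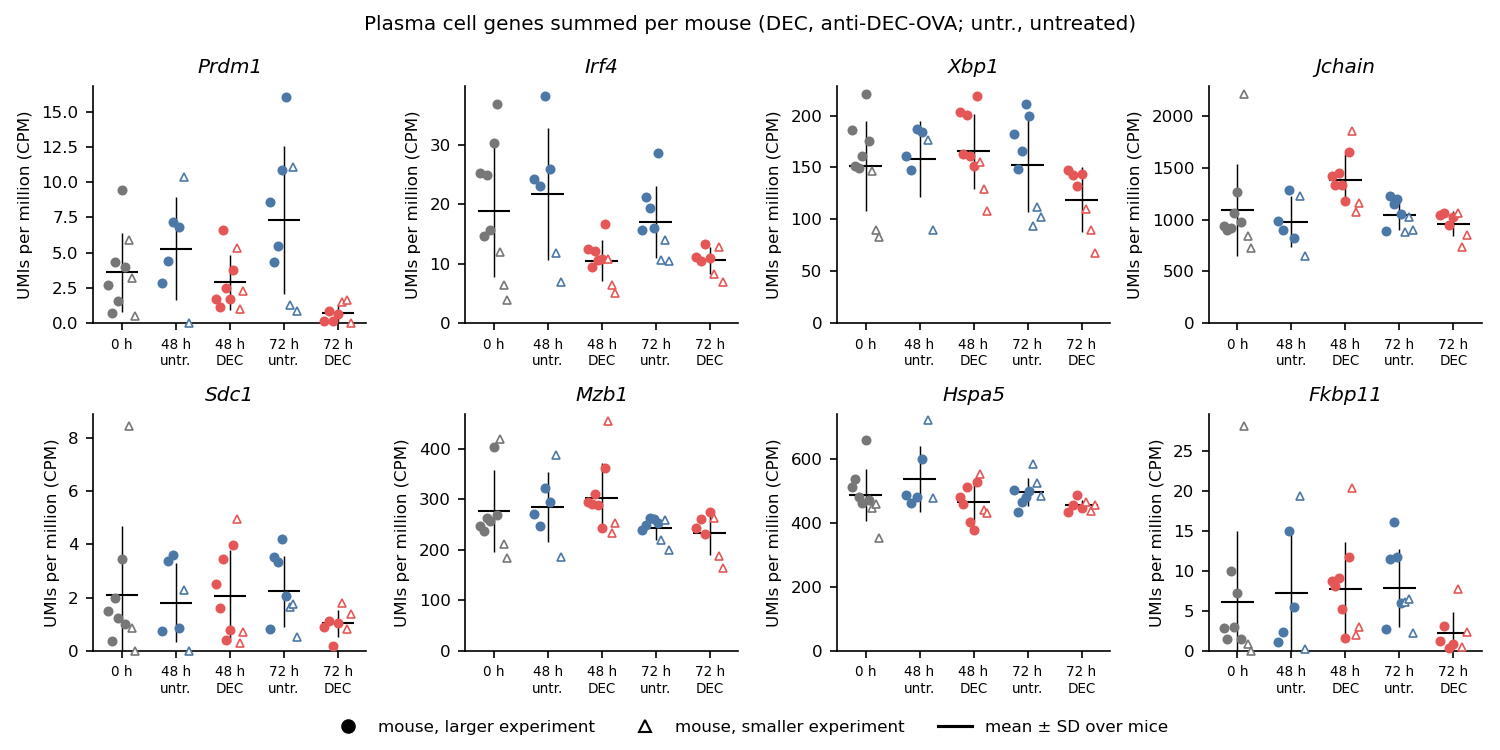
CPM of the 8 genes summed per mouse in the 5 groups (circles, 25 mice of the larger experiment; triangles, 14 mice of the smaller; lines, mean ± SD). *Jchain* has its highest mean, 1387 CPM, in treated mice at 48 h, and *Prdm1* lies at 1.66 CPM or less in every treated mouse at 72 h.

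Among the genes of antibody assembly, *Jchain* rose in treated mice at 48 h. It ranged from 644 to 1290 CPM (median 945) in the 6 untreated mice and from 1074 to 1860 CPM (median 1337) in the 9 treated mice, and the groups overlapped. The log2 fold change was 0.50 ± 0.16 (SE, edgeR adjusted p = 0.00805). It was 0.45 (edgeR adjusted p = 0.00143) in the larger experiment alone and 0.51 (edgeR adjusted p = 0.324) in the smaller. With only the cells that carried the paired B1-8hi contigs, 53.7% and 65.1% of the cells of these groups, it was 0.37 (edgeR adjusted p = 0.112).

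At 72 h *Jchain* ranged from 876 to 1228 CPM (median 1040) in untreated and from 738 to 1066 CPM (median 1021) in treated mice, a log2 fold change of -0.11 ± 0.15 (edgeR adjusted p = 0.770). At 0 h it ranged from 725 to 2212 CPM (median 942). The treatment differences at 48 h and 72 h differed from each other by 0.61 ± 0.22 on the log2 scale (edgeR adjusted p = 0.0308), and for *Prdm1* by 2.37 ± 0.92 (edgeR adjusted p = 0.0443). These were 2 of 8 members in a test that 31.5% of all genes passed. The call for *Jchain* ended with thinned cells (0.58, edgeR adjusted p = 0.0688), with DESeq2 (0.58, adjusted p = 0.0571) and with cells of the B1-8hi contigs (0.51, edgeR adjusted p = 0.156), and that for *Prdm1* with the contigs (2.67, edgeR adjusted p = 0.0931). Leaving out 1 mouse ended the call for *Jchain* in 9 of 39 fits (0.50 to 0.70) and for *Prdm1* in 15 of 39 (2.08 to 2.92). Other settings added calls, for *Xbp1* with thinned cells (0.48, edgeR adjusted p = 0.0429), without the cells with 2 plasma cell markers (0.31, edgeR adjusted p = 0.0258) and in 1 of 39 fits, and for *Fkbp11* with thinned cells (2.91, edgeR adjusted p = 0.0421) and in the larger experiment alone (3.28, edgeR adjusted p = 0.0131).

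Outside the cells with 2 plasma cell markers, *Jchain* was higher in treated mice at both times by edgeR's test, with no overlap of the groups at 48 h and with overlap at 72 h. At 48 h the untreated mice then ranged from 643 to 834 CPM (median 775) and the treated mice from 1037 to 1241 CPM (median 1121). The log2 fold change was 0.58 (edgeR adjusted p = 1.04e-09). At 72 h the ranges were 649 to 899 CPM (median 738) and 704 to 1015 CPM (median 945), which overlapped in the smaller but not in the larger experiment. The log2 fold change was 0.26 (edgeR adjusted p = 0.00387), the opposite sign to that with all cells. In pooled cells at 72 h, the cells left out held 28.7% of the *Jchain* UMIs of untreated and 8.17% of those of treated mice. At 48 h they held 23.4% and 20.3%. The SD over untreated mice at 48 h was 245 CPM with all cells and 71.7 CPM without these cells. The cells left out at 48 h were 1.69% of the treated and 1.19% of the untreated cells, as means over mice, at median depths of 12991 and 6316 UMIs per cell in all cells of these groups, and the part of depth was not tested.

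The rise of *Jchain* was also seen as a share of cells. It had a UMI in 80.5% ± 6.3 (SD, n = 6) of untreated and 92.9% ± 2.7 (SD, n = 9) of treated cells at 48 h, and in 75.3% ± 4.2 and 87.2% ± 2.3 with thinned cells, where the lowest treated mouse (82.2%) lay above the highest untreated mouse (79.2%). At 72 h the thinned shares were 75.0% ± 2.5 (SD, n = 8) and 83.2% ± 5.9 (SD, n = 7), and at 0 h 80.5% ± 2.1 (SD, n = 9). As a measure of free RNA in the droplets, *Jchain* had a UMI in 4 of 68 cells (5.88%) with 3 or more T cell markers and a median of 3471.5 UMIs, against 86.2% of the other cells at a median of 7620.5 UMIs.

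*Mzb1*, an ER cochaperone of antibody assembly in B and plasma cells, ranged from 185 to 387 CPM (median 283) in untreated and from 233 to 454 CPM (median 291) in treated mice at 48 h, and the log2 fold change was 0.09 ± 0.14 (edgeR adjusted p = 0.627). Without the cells with 2 plasma cell markers it was 0.17 (edgeR adjusted p = 0.0177), with 185 to 251 CPM against 211 to 252 CPM. At 72 h it ranged from 199 to 264 CPM and from 164 to 275 CPM (edgeR adjusted p = 0.915), and at 0 h from 184 to 419 CPM. It had a UMI in 1 of the 68 cells with T cell markers, against 66.0% of the others.

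*Hspa5*, whose promoter is printed above, was slightly lower in treated mice at 48 h. It ranged from 464 to 723 CPM (median 484) in untreated and from 377 to 554 CPM (median 459) in treated mice, and the groups overlapped. The log2 fold change of -0.21 ± 0.09 had an edgeR adjusted p of 0.0479, and leaving out 1 mouse ended the call in 15 of 39 fits, with the smallest difference, -0.11 (edgeR adjusted p = 0.333), without the untreated mouse B1 of the smaller experiment. Neither experiment alone passed it (-0.17 with an edgeR adjusted p of 0.122, and -0.37 with 0.0698). At 72 h the difference was -0.13 ± 0.09 (edgeR adjusted p = 0.458).

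The remaining members, *Sdc1* and *Fkbp11*, rested on few molecules, 458 and 1615 UMIs in all cells. At 48 h *Sdc1* ranged from 0 to 3.59 CPM in untreated and from 0.298 to 4.95 CPM in treated mice (edgeR adjusted p = 0.711), and *Fkbp11* from 0.173 to 19.3 CPM and from 1.55 to 20.3 CPM (edgeR adjusted p = 0.869). At 72 h *Sdc1* ranged from 0.502 to 4.21 CPM and from 0.176 to 1.81 CPM (edgeR adjusted p = 0.463), and *Fkbp11* from 2.26 to 16.1 CPM and from 0.351 to 7.69 CPM (edgeR adjusted p = 0.233). In the larger experiment alone *Fkbp11* was lower in treated mice at 72 h (-2.95 on the log2 scale, edgeR adjusted p = 0.0136), and in the smaller alone its log2 fold change was -0.001 (edgeR adjusted p = 0.9998).

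**Figure D4:**
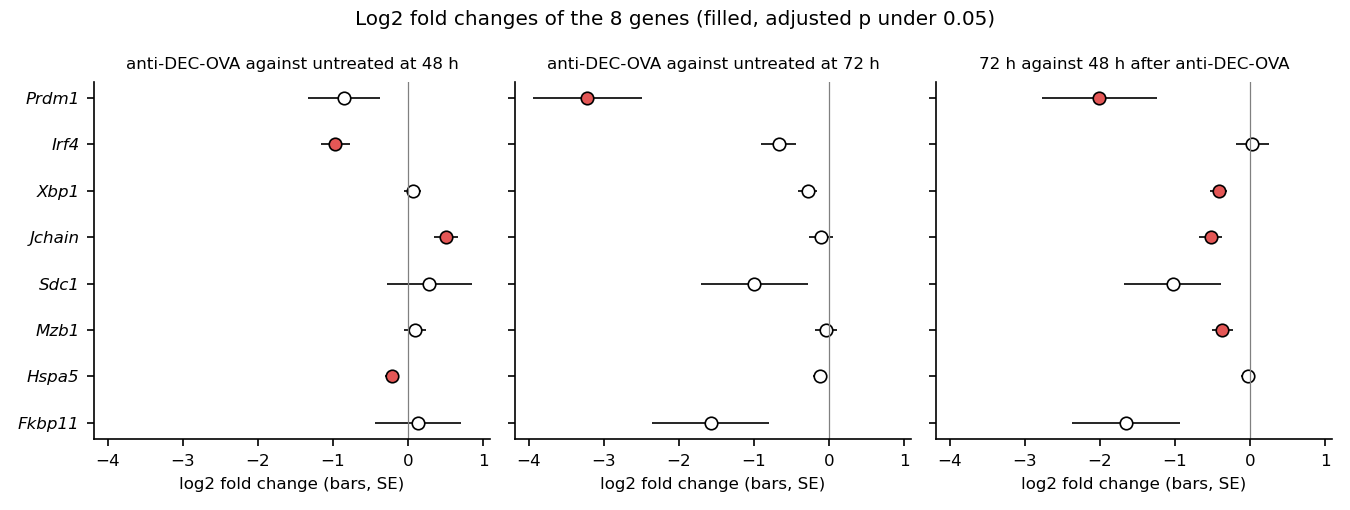
Log2 fold change (horizontal axis, bars are SE) of the 8 genes in 3 comparisons, filled where the edgeR adjusted p is under 0.05. *Irf4*, *Jchain* and *Hspa5* are filled at 48 h, *Prdm1* at 72 h, and *Prdm1*, *Xbp1*, *Jchain* and *Mzb1* between the times.

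From the treated mice of 48 h to those of 72 h, 4 of 8 members fell and none rose, where 49.1% of all genes passed the threshold. This comparison shares its mice with those at each time. *Jchain* did not overlap between the times, with 1074 CPM or more in each treated mouse at 48 h and 1066 CPM or less at 72 h (log2 fold change -0.52 ± 0.15, edgeR adjusted p = 0.00385). *Xbp1* changed by -0.42 ± 0.12 (edgeR adjusted p = 0.00296), *Mzb1* by -0.37 ± 0.14 (edgeR adjusted p = 0.0274) and *Prdm1* by -2.01 ± 0.77 (edgeR adjusted p = 0.0275). *Fkbp11* was at -1.66 ± 0.72 (edgeR adjusted p = 0.0527). The call for *Mzb1* ended with DESeq2 (-0.35, adjusted p = 0.0718) and with thinned cells (-0.33, edgeR adjusted p = 0.0837), and *Fkbp11* was called in both (-1.87, DESeq2 adjusted p = 0.0305, and -2.18, edgeR adjusted p = 0.0321). Cells of the B1-8hi contigs ended the calls for *Mzb1* (edgeR adjusted p = 0.0917) and *Prdm1* (edgeR adjusted p = 0.0774). Leaving out 1 mouse ended the call for *Mzb1* in 6 and for *Prdm1* in 5 of 39 fits, and added one for *Fkbp11* in 10 of 39 (-2.61 to -1.28). *Fkbp11* moved most without the treated 72 h mouse E1 of the smaller experiment, to -2.61 (edgeR adjusted p = 0.0172). In the larger experiment alone *Jchain* (-0.42, edgeR adjusted p = 0.0023), *Prdm1* (-2.72, edgeR adjusted p = 0.0124), *Xbp1* (-0.33, edgeR adjusted p = 0.015) and *Fkbp11* (-2.56, edgeR adjusted p = 0.00625) passed, where 4147 of 10133 genes did. In the smaller alone no member passed, where 2661 of 10334 genes did, with *Jchain* at -0.59 (edgeR adjusted p = 0.181).

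In untreated mice no member passed the threshold over time. Against 0 h, edgeR called 0 of 8 members at 48 h, where 0.127% of all genes passed, and 0 of 8 at 72 h, where 4.41% did. DESeq2 called 0 members in each, where it called 23 of 16528 genes at 48 h and 489 of 16528 at 72 h. At an unadjusted p under 0.05 edgeR also found 0 members in each, and the share of all genes there is not given here. The lowest p was that of *Prdm1* at 72 h, at 0.86 ± 0.47 on the log2 scale (edgeR adjusted p = 0.335). Without the cells with 2 plasma cell markers *Jchain* was lower at 72 h than at 0 h (-0.19, edgeR adjusted p = 0.0366).

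Other genes of the plasma cell programme were read from lists. Of 16 tested plasma cell genes beside the members, 5 rose and 3 fell at 48 h after treatment, which is 8 of 16 called where 47.4% of all genes were, with a median log2 fold change of 0.01 against 0.01 for all genes. *Prdx4*, an ER peroxiredoxin, rose from 58.9 ± 8.3 to 75.6 ± 11.2 CPM (SD, n = 6 and 9, edgeR adjusted p = 0.000107). *Pou2af1*, the B cell coactivator OCA-B, rose from 851 ± 22 to 1030 ± 23 CPM (edgeR adjusted p = 4.57e-08), and *Arid3a* by 0.28 on the log2 scale (edgeR adjusted p = 0.000155). *Ell2*, which directs processing to the secreted antibody form, fell from 130 ± 13 to 100.3 ± 5.9 CPM (edgeR adjusted p = 1.5e-07). *Glcci1* and *Zbtb20* fell as well. At 72 h 3 of the 16 rose and 2 fell, where 8.55% of all genes were called, and from 48 h to 72 h with treatment 2 rose and 6 fell, where 49.1% were.

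Of 24 tested genes of the unfolded protein response, 2 rose at 48 h (*Ero1a* and the chaperone *Canx*) and 6 fell, a smaller part called than the 47.4% of all genes, with a median of -0.11. *Ero1b*, an ER oxidase, fell from 233 ± 16 to 141 ± 7 CPM (SD, n = 6 and 9, edgeR adjusted p = 3.7e-10), *Ddit3*, the stress factor CHOP, from 11.4 ± 1.9 to 7.67 ± 1.08 CPM (edgeR adjusted p = 0.00127) and *Dnajb9*, a BiP cochaperone, from 32.2 ± 12.2 to 23.2 ± 5.3 CPM (edgeR adjusted p = 0.00177). At 72 h 1 rose and 1 fell, beside 8.55% of all genes called.

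Of 24 genes of the ER translocon and secretory pathway, 7 rose and 0 fell at 48 h (median 0.12), a smaller part called than the 47.4% of all genes. At 72 h 0 rose and 0 fell, where 8.55% of all genes were called, and between the times 16 fell and 0 rose, where 49.1% were (median -0.17 against -0.01 for all genes). *Lman1*, a cargo receptor, rose from 52.7 ± 10.5 to 69.2 ± 9.5 CPM at 48 h (SD, n = 6 and 9, edgeR adjusted p = 0.000627), and *Sec13* and *Kdelr2* each by 0.26 on the log2 scale. Of 14 B cell and GC factors opposed to plasma cell fate, 2 rose and 8 fell at 48 h (median -0.17), where 47.4% of all genes were called, and 12 rose and 0 fell between 48 h and 72 h (median 0.21), where 49.1% were. *Ciita*, the regulator of MHC class II genes, fell from 291 ± 19 to 195 ± 12 CPM (edgeR adjusted p = 2.05e-11) and was at 284 ± 17 CPM in treated mice at 72 h. *Cxcr5* and *Ebf1* followed the same course, while *Id3* and *Mef2b* rose at 48 h.

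Over the 39 mice, after the mean of each experiment was taken out, the genes most like *Jchain* in log2 CPM among 6807 genes were *Mzb1* (Pearson's r = 0.83), *Spcs1* (0.82), *Ssr4* (0.77), *Tmed10* (0.75) and *Prdx4* (0.74). The genes most like *Xbp1* were *Krtcap2* (0.85), *Sec11c* (0.84), *Mzb1* (0.84), *Manf* (0.83) and *Ssr2* (0.80). Those most like *Prdm1* were *Sub1* (0.77), *Ergic1* (0.74), *Npc2* (0.72), *Xbp1* (0.71) and *Pdia4* (0.70). Among the members the highest was that of *Sdc1* with *Fkbp11* (0.85) and the lowest that of *Irf4* with *Jchain* (0.04). The mice share libraries, and their groups and depth are part of these values, which are given as a description.

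In the CDK2 sort 2 of the 5 tested members were called higher and 3 lower in CDK2hi cells. Over all 10120 genes tested, 3690 were called higher and 3906 lower. All kept cells of each pool were summed here. The study limited its own comparison to cells with the expression profile of the dark zone, the part of the GC where B cells divide. In untreated GCs it found the reporter mostly nuclear in cells of the other part, the light zone. The part of the zones in the results below was not tested. *Jchain* was higher in the CDK2hi cells of 7 of 7 mice, with 834 to 1057 CPM (median 942) against 680 to 903 CPM (median 798) in their CDK2low cells, a log2 fold change of 0.25 ± 0.03 (SE, edgeR adjusted p = 5.73e-09, mouse as a block). *Mzb1* was higher in 5 of 7 mice, with medians of 249 and 251 CPM and a log2 fold change of 0.12 ± 0.04 (edgeR adjusted p = 0.00553). Without the block *Mzb1* was at 0.11 (edgeR adjusted p = 0.302), and with only cells of the B1-8hi contigs at 0.07 (edgeR adjusted p = 0.143).

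*Hspa5* was lower in the CDK2hi cells of all 7 mice, with 295 to 386 CPM (median 348) against 374 to 507 CPM (median 451), a log2 fold change of -0.35 ± 0.03 (edgeR adjusted p = 1.61e-11). *Xbp1* was also lower in all 7, with 81.0 to 112 CPM (median 99.4) against 104 to 125.5 CPM (median 117) and a log2 fold change of -0.23 ± 0.04 (edgeR adjusted p = 2.22e-06). *Irf4* was lower in 6 of 7 mice, at 3.60 to 7.43 CPM against 4.99 to 13.7 CPM (-0.58 ± 0.13, edgeR adjusted p = 0.000203), and thinned cells gave -0.31 (edgeR adjusted p = 0.104). The groups overlapped for each of these genes, and the direction lay within mice. All 5 tested members passed the threshold, where 75.1% of all genes did.

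**Figure D5:**
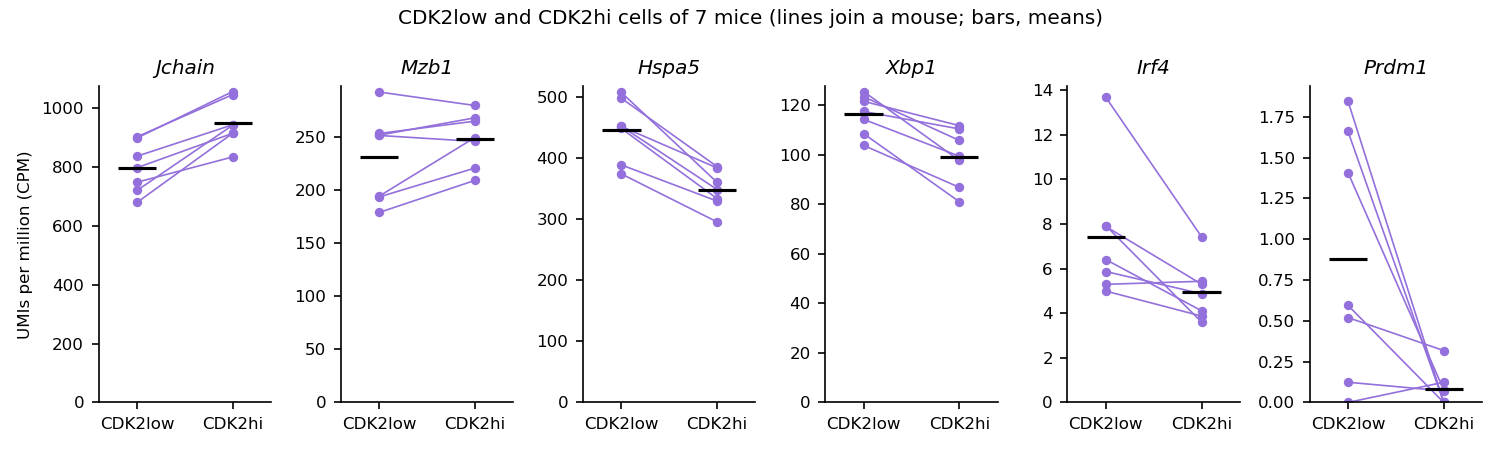
CPM of 6 genes in the CDK2low and CDK2hi cells of 7 mice, with a line for each mouse and a bar at each mean. *Jchain* rises in 7 of 7 mice, and *Hspa5* and *Xbp1* fall in 7 of 7.

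*Prdm1*, *Sdc1* and *Fkbp11* were below the count filter there, with 51, 27 and 34 UMIs in 11833 cells. *Prdm1* was between 0 and 1.85 CPM in CDK2low and between 0 and 0.318 CPM in CDK2hi cells, and without the filter its log2 fold change was -2.63 ± 0.61 (edgeR adjusted p = 4.33e-05). Cells with 2 plasma cell markers were 58 of 11833 (0.490%), with a mean of 0.345% ± 0.102 (SD, n = 7) in CDK2hi and 0.798% ± 0.228 (SD, n = 7) in CDK2low cells, at median depths of 10534 and 12885 UMIs per cell. They held 2.00% of the *Jchain* UMIs. Their median of light-chain UMIs was 193, against 133 in the other cells. The summed T cell markers were 1.11 to 3.18 CPM in CDK2hi and 0.949 to 61.1 CPM in CDK2low cells. The 6 naive or memory B cell markers, none at 0, summed to 113 to 198 CPM in CDK2hi and 314 to 496 CPM in CDK2low cells, with no overlap. Of these 5 were tested and 4 were lower in CDK2hi cells, where 75.1% of all genes were called. The part of either list in the results for the members was not tested. Without the cells with 2 plasma cell markers all 5 tested members passed again, where 7575 of 10115 genes did.

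The other lists are read against the 75.1% of all genes called in the same sort. Of the ER translocon and secretory genes 16 of 24 were higher and 2 lower in CDK2hi cells (median 0.23 against -0.02 for all genes), so that 18 of 24 were called, a part at the background. Of the unfolded protein response genes 6 were higher and 13 lower (median -0.11). Of 14 other plasma cell genes tested 5 were higher and 8 lower, and of the factors opposed to plasma cell fate 2 were higher and 11 lower (median -0.37). *Prdx4* rose from 43.1 ± 3.4 to 71.4 ± 7.2 CPM (SD, n = 7, edgeR adjusted p = 3.01e-14), and *Ero1b* fell from 307 ± 19 to 187 ± 13 CPM (edgeR adjusted p = 6.76e-19).

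The first experiment gave a separate view of the treated cells on day 10, at shallower depth (349784 to 4728692 UMIs per mouse). Of its day 10 cells 2.26% carried the B1-8hi contigs in treated and 12.2% in untreated mice, against 53.7% to 65.1% in the 0, 48 and 72 h groups. These are shares of all cells, with or without contigs. Among cells without 2 plasma cell markers a light chain was assembled in 3532 of 10643 there and in 16705 of 23390 in the 0, 48 and 72 h groups. The part of the difference in contigs in the results was not tested. *Jchain* was at 812, 828 and 890 CPM in the 3 untreated mice and at 1029, 1476 and 1499 CPM in the 3 treated mice, with no overlap and a log2 fold change of 0.65 ± 0.09 (edgeR adjusted p = 2.9e-05). *Mzb1* was at 412, 433 and 474 CPM against 507, 553 and 647 CPM (0.35 ± 0.08, edgeR adjusted p = 0.0121), and *Hspa5* at 246, 250.3 and 250.4 CPM against 287, 303 and 325 CPM (0.29 ± 0.08, edgeR adjusted p = 0.0430). These 3 of 5 tested members passed, where 1.95% of all genes did. Leaving out 1 mouse ended the call for *Hspa5* in 6 and for *Mzb1* in 3 of 9 fits, and DESeq2 did not call *Hspa5* (0.30, adjusted p = 0.104).

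Without the cells with 2 plasma cell markers only *Jchain* of these members passed (0.44, edgeR adjusted p = 6.97e-05), where 176 of 9065 genes did, with *Mzb1* at 0.16 (edgeR adjusted p = 0.359) and *Hspa5* at 0.16 (edgeR adjusted p = 0.388). Those cells were 0.517% ± 0.407 (SD, n = 3) of the treated and 0.0647% ± 0.112 (SD, n = 3) of the untreated cells, the opposite order to the pooled larger and smaller experiments at 72 h, at median depths of 1887 and 1590 UMIs. With thinned cells the shares were 0.157% ± 0.154 (8 cells) and 0.0737% ± 0.128 (1 cell), a gap within their SD. *Fkbp11*, *Prdm1* and *Sdc1* were below the count filter. *Fkbp11* was at 0, 1.74 and 1.93 CPM in untreated and at 2.50, 10.7 and 10.7 CPM in treated mice, and without the filter it passed the threshold (2.29 ± 0.50, edgeR adjusted p = 0.000641). *Prdm1* was at 0, 0 and 1.93 CPM against 0.499, 1.89 and 3.20 CPM, and the groups overlapped (1.73 ± 0.92 without the filter, edgeR adjusted p = 0.556). *Sdc1* was listed at 0 in each untreated mouse and at 0, 2.13 and 2.77 CPM in the treated mice (edgeR adjusted p = 0.124 without the filter). From day 7 to day 10 without treatment edgeR called 0 of 5 members, where 0.650% of all genes passed. DESeq2 called 0 of 8, where it called 32 of 14008 genes. At an unadjusted p under 0.05 edgeR found 0 of the 5, and the share of all genes there is not given here. Without the filter *Prdm1* had an unadjusted p of 0.0274 in edgeR's test (adjusted p = 0.557).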

How the data were processed

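The deposited files hold counts: whole UMIs per gene and cell and UMIs of hashtag antibodies that mark the mouse, made by the authors with Cell Ranger (6.0.1 per the labels, 7.1.0 and 8.0.1 per the file headers) on mm39. Per the labels the authors used Seurat 5.1.0. A cell had to have 200 or more detected genes and less than 10% of its UMIs from mitochondrial genes. They were assigned to mice with HTODemux (Seurat 5.3.0, quantile 0.99) where exactly the hashtags of 1 mouse were positive, which removes doublets between mice but not within a mouse. UMIs were summed per mouse and fitted with edgeR 4.0.16 (R 4.3.3, quasi-likelihood test, TMM, filterByExpr) with a term for the experiment, or the mouse as a block between CDK2hi and CDK2low cells, which come from the same mice. Benjamini-Hochberg adjusted p under 0.05 was the threshold. The replicates are mice. Sums and shares were made with Python 3.11.15, numpy 2.4.6, pandas 2.3.3 and scipy 1.17.1. Cells were thinned to 2871 UMIs (0, 48 and 72 h), 5260 (CDK2) or 1007 (first experiment). The 8 members were named in every comparison, and from each list the 3 largest rises and falls at 48 h among genes past the threshold. The members and lists were chosen with earlier results of these data known. Tested on simulated data for the comparison at 48 h, over 10113 genes, the fit recovered 176 of 198 changed genes with 6 false calls. The simulated means held no difference between experiments and few changed genes, whereas 47.4% of genes were called at 48 h in the data. The number of false calls in the data is therefore not known from it. Alternatives were DESeq2 1.42.0, no filter on low counts or on cells, no experiment term, only the groups compared, thinned cells, cells with the B1-8hi contigs, another hashtag rule, leaving out cells with 2 plasma cell markers, each experiment alone and each mouse left out. Heavy-chain genes are not reported here.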

Additional observations from a re-analysis of the deposited data

Results flagged for a closer look

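The 8 genes were each read in 7 groups of 6 to 9 mice, and 6 of these 56 readings held a mouse far from the others by Dixon's criterion. For normally distributed values chance gives this in about 1 in 20 separate groups. Sparse counts near 0, as for *Prdm1* in CDK2hi cells, need not keep that rate. The groups are also the same mice read for several genes, and 3 of the 6 are 1 mouse. In the 0 h group 1 mouse of the smaller experiment, A1, was highest for *Jchain* (2212 CPM, next 1265), *Fkbp11* (28.1 CPM, next 9.98) and *Sdc1* (8.46 CPM, next 3.45). In treated mice at 72 h, mouse E1 of the smaller experiment had 7.69 CPM of *Fkbp11* (next 3.12). In the CDK2 sort, *Irf4* was at 13.7 CPM in the CDK2low cells of mouse M6 (next 7.93), and *Prdm1* at 0.318 CPM in the CDK2hi cells of mouse M1 (next 0.123).

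The treatment difference changed between the times for *Jchain*, by 0.61 on the log2 scale (48 h minus 72 h, edgeR adjusted p = 0.0308), and for *Prdm1*, by 2.37 (edgeR adjusted p = 0.0443). With thinned cells the *Jchain* value was no longer past the threshold (0.58, edgeR adjusted p = 0.0688), and with cells of the B1-8hi contigs neither was (edgeR adjusted p = 0.156 and 0.0931). Thinned cells also passed *Xbp1* (0.48, edgeR adjusted p = 0.0429) and *Fkbp11* (2.91, edgeR adjusted p = 0.0421).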

How the results depend on the processing

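The smaller experiment alone called 0 members at 48 h, at 72 h, between the times and for the difference of the treatment effect. Of 10334 genes tested it called 2149, 22, 2661 and 768 in the same order. Its share of cells with 2 plasma cell markers at 72 h differed by -0.0523 points. At 72 h, where 1 member was called, 2 were called (*Prdm1* and *Irf4*) with no filter on low counts and with the highest-hashtag rule. Over all genes these settings called 782 of 16528 and 958 of 10286. The larger experiment alone called 3 members (*Fkbp11* too), where 819 of 10133 genes were called. With only the groups compared, *Prdm1* and *Sdc1* were below the filter and not tested. The 2 called of 6 were then *Irf4* and *Xbp1*, where 784 of 9745 genes were called. Cells with the B1-8hi contigs gave 2 members between the times in place of 4 (4004 of 9836 genes called), and 0 for the difference in place of 2 (1984 of 9836). For the difference DESeq2 gave 1 (3223 of 16528 genes) and a fit with no experiment term 0 (1222 of 10220). Without the cells with 2 plasma cell markers 1 member was called in untreated mice at 72 h against 0 h (458 of 10181 genes called). In the first experiment 1 was called in place of 3 (176 of 9065 genes), and *Jchain* at 72 h reversed to 0.26. The fit with no replicate block called 4 of 5 members between CDK2hi and CDK2low cells, where 7052 of 10120 genes were called. Leaving out each mouse gave 2 to 4 members at 48 h, 1 to 2 at 72 h, 2 to 5 between the times, 0 to 3 for the difference, 0 to 0 in untreated mice, 5 to 5 in the CDK2 sort and 1 to 4 in the first experiment. With all mice, 47.4% of all genes were called at 48 h, 8.55% at 72 h and 49.1% between the times. For the difference 31.5% were, in the CDK2 sort 75.1% and with treatment in the first experiment 1.95%. In untreated mice 0.127% were at 48 h and 4.41% at 72 h. The shares of all genes with 1 mouse left out are not given here. In the first experiment 5 members were tested without mouse M10 and 6 without M4 or M5. For the share of cells with 2 plasma cell markers, leaving out each mouse gave 0.294 to 0.655 points at 48 h and -1.03 to -0.724 points at 72 h. The cause of these changes was not tested.

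Over all genes, thinned cells called 3176 genes at 48 h (4843 with all UMIs), 419 at 72 h (874), 2747 between the times (5019), 1623 for the difference (3217) and 170 in untreated mice at 72 h (451). With no experiment term these were 2680, 217, 3104, 1222 and 77, and in the smaller experiment alone 2149, 22, 2661, 768 and 3. The B1-8hi contigs gave 1984 for the difference, and only the groups compared 256 in untreated mice at 72 h. In untreated mice at 48 h (13) the counts were 4 with the contigs, 23 with DESeq2, 0 in the smaller experiment, 5 with no experiment term and 21 with no filter. In the first experiment DESeq2 called 85 and no filter 279 with treatment (177), and 32 and 116 between the days (59). Leaving out immunoglobulin genes was not run, since the genes analysed here held none. Depth limits *Prdm1*, *Sdc1* and *Fkbp11* most, with 879, 458 and 1615 UMIs.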
